A study of Rattus norvegicus with 71 samples.

Results

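The 10 genes described here encode neuropeptide precursors: Sst, Vip, Npy, Cck, Crh, Penk, Tac1, Cartpt, Adcyap1 and Pdyn. They were chosen by symbol from the deposited gene table, 10 of its 19771 genes, and all 10 passed the filter on low counts that kept 15343 genes. RNA came from rat primary cortical cells on microelectrode arrays, plates with electrodes that record the firing of the cultured network, collected on day in vitro 12. The cells had been exposed from 2 h after plating to 0, 0.1, 0.3 or 1 µM cytosine arabinoside, 5-fluorouracil or domoic acid, to 0, 0.3, 1 or 3 µM haloperidol, to 0, 0.3, 1, 3 or 10 µM deltamethrin, or to 0, 1, 3 or 10 µM cypermethrin. Each compound had its own 0 µM libraries, which received the vehicle, not named in the labels. The strain, age and sex of the rats are not given in the sources used here. Each library pooled 2 to 3 wells, and the study used 2 separate cultures. Which culture gave which library is not stated, so p-values measure the spread between these libraries. The comparisons asked at which concentrations each compound changed the neuropeptide transcripts, and whether related compounds differed.

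Neuropeptides are short signalling chains cut from larger precursor proteins by convertases in dense-core granules, amidated in many cases, and released on strong or repeated firing. They act on G-protein-coupled receptors. In the cortex, somatostatin (Sst), vasoactive intestinal peptide (Vip), neuropeptide Y (Npy) and cholecystokinin (Cck) mark classes of inhibitory interneurons, and cholecystokinin is also made by pyramidal cells. Corticotropin-releasing hormone (Crh) is made by some cortical interneurons as well as by the hypothalamus. Proenkephalin (Penk) and prodynorphin (Pdyn) are opioid precursors, Tac1 encodes substance P, Cartpt encodes the cocaine- and amphetamine-regulated transcript peptide, and Adcyap1 encodes pituitary adenylate cyclase-activating polypeptide. Several of these genes are textbook targets of calcium and cyclic AMP signalling through the transcription factor CREB, which binds the cyclic AMP response element.

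That element was looked for in the promoters of the members, since it is the sequence through which cyclic AMP is known to raise Sst transcription. The RefSeq promoter table of build GRCr8, which spans 250 bases before to 50 after each annotated start, held 7 of the 10 members, all except Cck, Crh and Penk. The full element TGACGTCA, the same on both strands, stood in 2 of the 7 promoters, those of Sst and Cartpt, and in 1.83% of all 33469 promoters of the table. The shorter form TGACG, searched on both strands and contained in the full element, stood in 4 of the 7, adding Vip and Tac1, and in 21.2% of all promoters. The stretches holding the motifs follow in the direction of transcription, with the motif in capitals. The Sst motif spans positions 3 to 10 counted from the annotated start, in chr11:90461508-90461565 on the plus strand, and the Cartpt motif spans -142 to -135, in chr2:32991330-32991417 on the minus strand. The Vip motif spans -97 to -93, in chr1:44470343-44470427 on the plus strand. In Tac1 the motif is on the opposite strand, -206 to -202, in chr4:36645337-36645421, and so reads CGTCA here.
Sst: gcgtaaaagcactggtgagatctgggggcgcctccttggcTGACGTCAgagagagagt
Cartpt: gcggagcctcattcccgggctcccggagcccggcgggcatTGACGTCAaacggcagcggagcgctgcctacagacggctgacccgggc
Vip: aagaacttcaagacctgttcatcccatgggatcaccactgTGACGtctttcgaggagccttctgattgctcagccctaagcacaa
Tac1: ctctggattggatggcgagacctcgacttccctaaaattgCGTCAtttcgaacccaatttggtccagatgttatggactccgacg
A match describes letters in these windows and not a bound site, and the values below do not test it.

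The 71 libraries held 5.21 M to 43.1 M counts each, with a median of 10.2 M. The titles place 24 in sequencing project GRC321 and 47 in project GRC327. Each group held 1 GRC321 and 2 GRC327 libraries, with 3 exceptions. The 0 µM group of 5-fluorouracil held 2 GRC327 libraries, that of cypermethrin held 1 of each project, and deltamethrin 0.3 µM was 1 GRC321 library. At 0 µM the summed markers of neurons, astrocytes and oligodendrocyte lineage were all expressed, so the cultures held glia as well as neurons, and none of the 4 microglial markers passed the filter.

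At 0 µM all 10 transcripts were detected in each of the 16 libraries, 3 of them at levels that separated the projects. Levels are in CPM, the usual count unit relative to library size, here library totals times trimmed-mean (TMM) factors. They are not per length and are not compared between genes. Sst ran from 51.1 to 135 CPM with a median of 77.8, at 115 to 135 CPM in GRC321 and 51.1 to 91.1 CPM in GRC327. Penk ran from 29.8 to 39.5 CPM in GRC321 and from 13.96 to 25.5 CPM in GRC327. Cck went the other way, at 62.0 to 112 CPM in GRC321 and 175 to 302 CPM in GRC327. For these 3 genes the projects did not overlap, and for the other 7 they did. The share of all genes that the projects separated was not computed. Every test carried a project term for each compound. Median levels of the remaining genes were 31.9 CPM for Adcyap1, 12.0 for Vip, 11.9 for Cartpt, 2.79 for Npy, 1.66 for Tac1, 1.56 for Pdyn and 0.295 for Crh. Crh rested on 1 to 11 counts per library, so falls of Crh could hardly be seen at this depth.

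**Figure D1:**
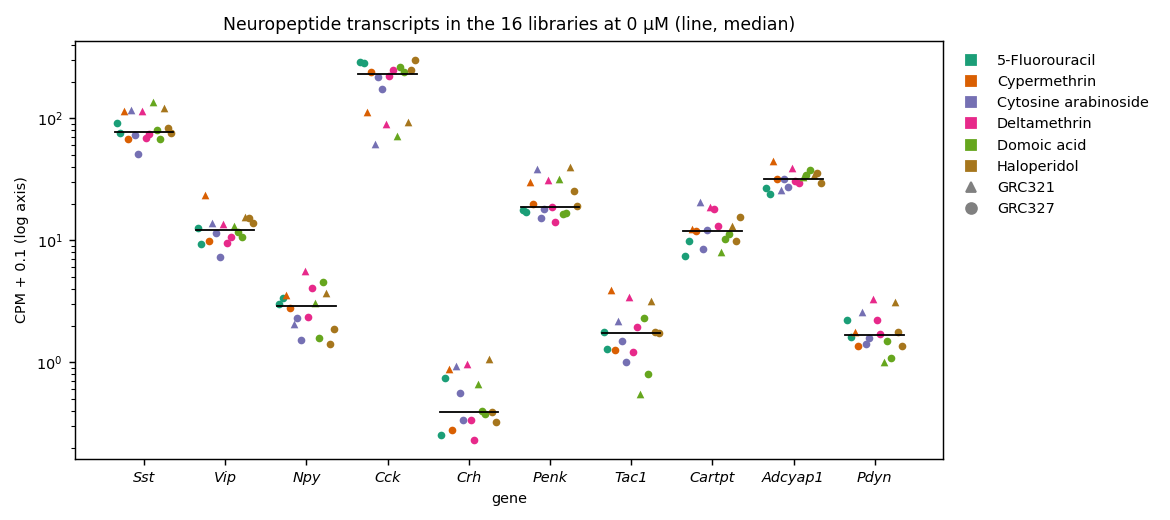
CPM plus 0.1 on a log axis for each neuropeptide gene (x axis) in the 16 libraries at 0 µM. Colours give the compound whose control a library was, triangles are GRC321, circles are GRC327, and bars are medians. The GRC321 libraries stand above the others for Sst and Penk and below them for Cck. Heights are not comparable between genes.

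Cytosine arabinoside, a cytidine analogue with an arabinose sugar that stops DNA synthesis and kills dividing cells, raised all 10 neuropeptide transcripts at 1 µM. The 1 µM and 0 µM libraries overlapped for Cck and Cartpt alone, and the share of all genes without such overlap was not computed. In edgeR's quasi-likelihood test 10 of 10 were called higher at an adjusted p under 0.05, against 16.6% of all genes tested. At 0.3 µM 8 of 10 were called, against 5.96%, and at 0.1 µM 3 of 10, against 2.38%. The median log2 fold change of the 10 was 0.46 at 0.1 µM, 1.38 at 0.3 µM and 2.80 at 1 µM, while the median over all genes tested was 0.01, 0.02 and 0.03. None was called lower at any concentration by edgeR, DESeq2 or limma, against 6.75% of all genes at 0.1 µM, 11.7% at 0.3 µM and 19.4% at 1 µM, and 0 had an unadjusted p under 0.05 in that direction. Without a project term in the model 11 of the 21 calls were made, 8 of them at 1 µM, where Cck and Cartpt were lost. In the trend over the rank of the concentrations 10 of 10 were called higher, against 16.6% of all genes.

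**Figure D2:**
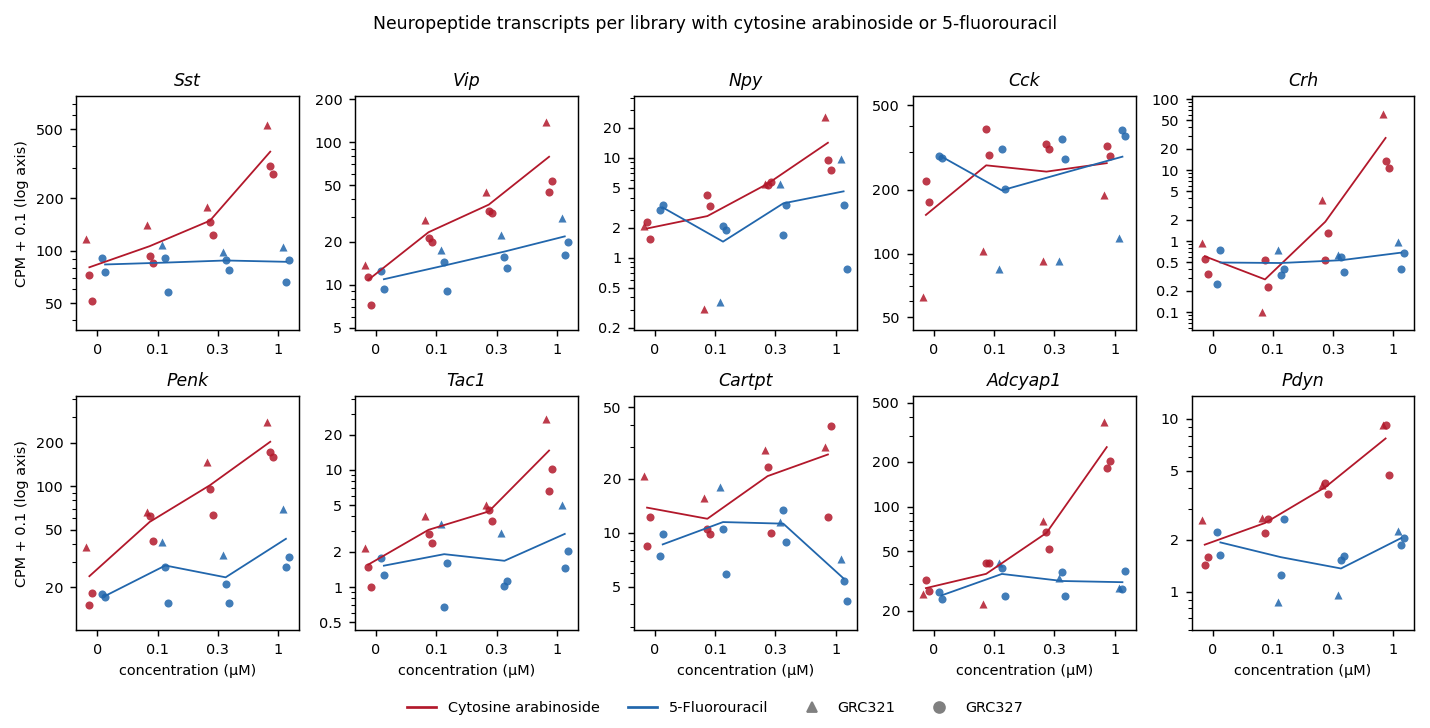
CPM plus 0.1 on a log axis against concentration (µM) for each neuropeptide gene, with 1 point per library, cytosine arabinoside in red and 5-fluorouracil in blue. Triangles are GRC321, circles are GRC327, and lines join group means. The red points climb with concentration for nearly all genes and the blue points stay near their 0 µM level for most of them.

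Among the interneuron peptides, somatostatin, which inhibits release and marks dendrite-targeting interneurons, rose in steps. Sst (chr11:80358211-80359445, plus strand, in the coordinates of the deposited files, whose build is not given in the sources used here) stood at 118 CPM in the GRC321 library and 72.3 and 51.1 CPM in the GRC327 libraries at 0 µM. At 0.1 µM the values were 141, 92.6 and 84.7 CPM, at 0.3 µM 178, 145 and 123 CPM, and at 1 µM 528, 308 and 277 CPM, in the same order of projects. All 3 libraries at 0.3 µM lay above all 3 at 0 µM, and those at 1 µM above those at 0.3 µM. The log2 fold change was 0.43 ± 0.19 (SE) at 0.1 µM (adjusted p = 0.172, edgeR), 0.95 ± 0.19 at 0.3 µM (adjusted p = 0.00017) and 2.22 ± 0.20 at 1 µM.

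Vip (chr1:42169501-42177583, plus strand), whose peptide marks interneurons that inhibit other interneurons, was among the 3 genes already higher at 0.1 µM. It stood at 13.8, 11.3 and 7.18 CPM at 0 µM, with the GRC321 library first here and in the following lists of 3 values. At 0.1 µM it stood at 28.6, 21.3 and 20.01 CPM, at 0.3 µM at 44.7, 32.9 and 31.7 CPM, and at 1 µM at 139, 44.5 and 53.5 CPM. The groups at 0, 0.1 and 0.3 µM did not overlap, and the 1 µM group reached down to the level of the highest 0.3 µM library. Its log2 fold change was 1.13 ± 0.22 at 0.1 µM (adjusted p = 0.00019, edgeR) and 2.75 ± 0.22 at 1 µM. The step from 0.3 to 1 µM was called at 0.98 and fell to 0.61 (adjusted p = 0.0612) without the GRC321 library at 1 µM.

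Npy (chr4:79573998-79581209, plus strand), the gene of a peptide that dampens excitation, was low at 0 µM, at 1.97, 2.19 and 1.44 CPM. It reached 5.34, 5.31 and 5.597 CPM at 0.3 µM and 25.4, 9.47 and 7.40 CPM at 1 µM. At 0.1 µM the GRC321 library held 0.206 CPM against 4.17 and 3.17 CPM in the others. The groups at 0.3 and 1 µM lay above 0 µM in every library, yet only the 1 µM change was called, at 2.85 ± 0.64 (adjusted p = 0.00031, edgeR). The 0.3 µM change was 1.54 ± 0.65 (adjusted p = 0.102).

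Cck (chr8:130120523-130127393, minus strand), whose peptide acts on the CCKB receptor in cortex, was called higher at all 3 concentrations against the compound's own 0 µM libraries. It stood at 62.0, 219 and 175 CPM at 0 µM, 102, 386 and 292 CPM at 0.1 µM, 92.0, 328 and 309 CPM at 0.3 µM and 189, 323 and 288 CPM at 1 µM. Within each project every exposed library exceeded its 0 µM libraries, although the groups overlapped when both projects were pooled. These 0 µM libraries included the lowest of each project. Over all compounds the 0 µM libraries held 62.0 to 112 CPM in GRC321 and 175 to 302 CPM in GRC327. The exposed values of 102, 92.0, 292 and 288 CPM lay within these ranges, and the others above them. Its log2 fold change was 0.77 ± 0.17 at 0.1 µM (adjusted p = 0.0017, edgeR), 0.66 at 0.3 µM (adjusted p = 0.0041) and 0.99 ± 0.17 at 1 µM (adjusted p = 7.8e-06). Without the GRC321 library at 1 µM the last was 0.61 (adjusted p = 0.00442). The calls at 0.1 and 0.3 µM were each lost in 3 of 9 other settings, among which the lowest changes were 0.39 and 0.28. That at 1 µM was lost in 1. No step between neighbouring concentrations was called for Cck.

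Crh (chr2:104459999-104461864, minus strand), which encodes the stress-axis releasing hormone, had the largest change of the 10 at 1 µM. It stood at 0.829, 0.464 and 0.239 CPM at 0 µM and at 60.8, 13.4 and 10.6 CPM at 1 µM, from 8, 7 and 4 counts to 484, 220 and 156. At 0.3 µM it stood at 3.69, 0.442 and 1.19 CPM, from 29, 3 and 10 counts. At 0.1 µM the GRC321 library held 0 counts, which allows up to 0.309 CPM, and the others 4 and 1. The 1 µM libraries lay far above all others, and those at 0.3 µM overlapped 0 µM. The log2 fold change at 1 µM was 5.49 ± 0.50. Both steps were called, at 2.98 ± 0.70 from 0.1 to 0.3 µM (adjusted p = 0.00729, edgeR) and 3.86 ± 0.46 from 0.3 to 1 µM. The lower of these rests on the few counts at 0.1 µM, where the change against 0 µM was -1.35 ± 0.76 (adjusted p = 0.332), and at -3.42 (adjusted p = 0.0336) it was called lower when replicate 2 at 0.1 µM was left out. The 0.1 to 0.3 µM step was 1.53 (adjusted p = 0.522) without the library with 0 counts. The 0.3 µM change of 1.63 ± 0.54 (adjusted p = 0.029) missed the threshold, at 1.37 to 1.51, without replicate 1 or 3 at 0 µM or replicate 1 or 3 at 0.3 µM.

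The opioid precursors both rose. Penk (chr5:17056419-17061838, minus strand), the precursor of the enkephalins, stood at 38.0, 15.1 and 18.1 CPM at 0 µM, 65.96, 61.9 and 41.5 CPM at 0.1 µM, 146, 95.1 and 63.4 CPM at 0.3 µM and 278, 171 and 159 CPM at 1 µM. Each exposed group lay wholly above 0 µM. It was the only member called in both steps and at all 3 concentrations against 0 µM, with log2 fold changes of 1.36 ± 0.20 at 0.1 µM (adjusted p = 1.0e-06, edgeR), 2.14 at 0.3 µM and 3.15 at 1 µM. Pdyn (chr3:122194329-122206672, minus strand), the precursor of the dynorphins, rose from 2.49, 1.33 and 1.50 CPM at 0 µM to 4.07, 4.13 and 3.57 CPM at 0.3 µM and 9.05, 9.10 and 4.61 CPM at 1 µM. Both of these exposed groups lay above the 0 µM group, and the 1 µM group above the 0.3 µM group. Its log2 fold change was 1.19 ± 0.35 at 0.3 µM (adjusted p = 0.0110, edgeR), a call lost without replicate 2 at 0 µM (adjusted p = 0.0588) or at 0.3 µM (adjusted p = 0.0517), and 2.13 ± 0.33 at 1 µM.

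Of the remaining peptides, Tac1 and Adcyap1 rose steeply and Cartpt little. Tac1 (chr4:33638709-33646820, plus strand) stood at 2.07, 1.39 and 0.897 CPM at 0 µM, 3.91, 2.74 and 2.28 CPM at 0.1 µM, 4.96, 4.42 and 3.57 CPM at 0.3 µM and 26.9, 6.55 and 10.0 CPM at 1 µM. No exposed library was as low as a 0 µM library. The log2 fold change was 1.05 ± 0.40 at 0.1 µM (adjusted p = 0.0996, edgeR), 1.62 at 0.3 µM (adjusted p = 0.0020) and 3.18 ± 0.39 at 1 µM. Adcyap1 (chr9:121706979-121725717, minus strand), whose peptide raises cyclic AMP in its target cells, showed no call at 0.1 µM and a steep last step. It stood at 25.7, 31.8 and 27.2 CPM at 0 µM, 22.02, 41.8 and 41.9 CPM at 0.1 µM, 79.9, 67.8 and 51.9 CPM at 0.3 µM and 368, 182 and 204 CPM at 1 µM. The groups at 0.3 and 1 µM were separate from each other and from those below. The step from 0.3 to 1 µM was 1.90 ± 0.24 (adjusted p = 5.17e-08, edgeR), after 0.90 ± 0.25 from 0.1 to 0.3 µM (adjusted p = 0.0367). Cartpt (chr2:30125249-30127270, minus strand) stood at 20.6, 8.36 and 12.1 CPM at 0 µM and at 30.0, 12.1 and 39.4 CPM at 1 µM, and the groups overlapped. Its change of 1.07 ± 0.35 at 1 µM (adjusted p = 0.0129, edgeR) rested on the library with 39.4 CPM: without it the change was 0.42 (adjusted p = 0.385). Without replicate 2 at 0 µM it was 0.88 (adjusted p = 0.0792). The Cartpt trend of 0.40 per step was likewise 0.20 (adjusted p = 0.162) without the library with 39.4 CPM.

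The steps show where the levels parted. From 0.1 to 0.3 µM 3 members were called higher, Crh, Penk and Adcyap1, against 0.196% of all genes. From 0.3 to 1 µM 7 were called higher, Sst, Vip, Crh, Penk, Tac1, Adcyap1 and Pdyn, against 6.32%. Of the 10 called steps, 6 were lost without at least 1 of the libraries. The Adcyap1 step from 0.1 to 0.3 µM was 0.51 (adjusted p = 0.648) and the Penk step 0.59 (adjusted p = 0.272) without the GRC321 library at 0.1 µM, and the Tac1 step from 0.3 to 1 µM was 1.15 (adjusted p = 0.0587) and the Pdyn step 0.93 (adjusted p = 0.112) without that at 1 µM. Between 5 and 11 of the 20 steps were called when 1 library at a time was left out, and 7 without the GRC321 library at 1 µM.

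That GRC321 library at 1 µM held 9.12% of its counts in mitochondrially encoded genes, the highest share of the 71 libraries, and held the highest CPM of the 3 for 7 of the 10 members. Without it all 10 members were still called at 1 µM, with Crh at 5.07, Vip at 2.39, Npy at 1.97, Cck at 0.61 and Adcyap1 at 2.71 on the log2 scale. Within each project the 1 µM mean exceeded the 0 µM mean for all 10 genes. For Crh the ratio of means was 73.4 in GRC321 and 34.0 in GRC327, for Npy 12.9 and 4.65, and for Adcyap1 14.3 and 6.54. For Sst the ratios were close, at 4.49 and 4.74, and for Penk GRC327 held the larger, at 9.98 against 7.30.

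Genes that make, store and read neuropeptides moved unevenly with cytosine arabinoside. Of 22 genes of peptide processing and dense-core granules 14 were called higher and 4 lower at 1 µM, with a median log2 fold change of 0.82. Of all genes 16.6% were called higher and 19.4% lower at 1 µM. Scg2, a granule protein that also yields a peptide, rose by 3.44 ± 0.21, the convertase Pcsk1 by 3.14, the amidating enzyme Pam by 1.92 and the granule release factor Cadps2 by 1.82. The 4 that fell, named after their values were seen, were the convertase Pcsk2 (-0.44), the carboxypeptidases Cpe (-0.44) and Cpd (-0.39), and Pcsk1n (-0.76), which encodes a convertase inhibitor. At 0.3 µM 10 were called higher, against 5.96% of all genes, and at 0.1 µM 5, against 2.38%. At both 0 were lower, against 11.7% and 6.75%. Among 40 other neuropeptide genes 15 passed the filter, and 5 were called higher and 2 lower at 1 µM, with Pnoc at 3.33, Nppc at 3.31, Nts at 2.67 and Apln, a peptide gene that also occurs in glia and vessels, at -5.44. Of 17 receptor genes tested 4 rose and 3 fell, where 16.6% of all genes rose and 19.4% fell, with the Y2 receptor Npy2r at 2.37, the neurokinin receptor Tacr3 at 2.09, the mu opioid receptor Oprm1 at 1.79 and the PACAP receptor Adcyap1r1 at -1.49.

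Activity-induced transcription factors moved with the peptides at 1 µM. Of 12 such genes 11 were called higher, against 16.6% of all genes, with a median of 3.24. Among them were Npas4 at 5.64, Nr4a3 at 3.94, Nr4a2 at 3.24 and Junb at 3.24. At 0.3 µM 6 of 12 were called, against 5.96% of all genes called higher. At 0.1 µM 0 were called by edgeR, against 2.38%, with 4 higher at an unadjusted p under 0.05. Vip, Cck and Penk were called at that concentration. A link between these factors and the peptides was not tested. Of 12 genes of the CREB family and its coactivators 5 rose and 2 fell at 1 µM, against 16.6% and 19.4% of all genes, with a median of 0.05. Crem, whose products include a repressor at cyclic AMP response elements, rose by 2.21, Atf4 by 0.82, Atf2 by 0.64 and Creb3 by 0.38.

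Markers of several cell types changed along with the peptides. In bulk RNA fewer cells of a type and less RNA per cell cannot be told apart. At 1 µM 16.6% of all genes were called higher and 19.4% lower. GABAergic markers, which share cells with several of the peptides, summed to 2012 to 2111 CPM at 0 µM and 4361 to 5204 CPM at 1 µM, and 6 of 10 were called higher at 1 µM and 0 lower, with Gad2 at 2.44 and Gad1 at 2.33. Markers of striatal projection neurons, a subcortical type that holds Penk, Pdyn and Tac1, had 5 of 8 higher and 1 lower, with a median of 1.10, and Drd1 at 0.93. Pan-neuronal markers had 0 of 8 higher and 1 lower, and summed to 6669 to 8783 CPM at 0 µM and 5284 to 7962 CPM at 1 µM. Glutamatergic markers had 1 of 8 in each direction, with a median of 0.01. All 6 astrocyte markers fell, from summed levels of 1998 to 3035 CPM to 112 to 158 CPM, and all 6 oligodendrocyte lineage markers fell, from 1048 to 1271 CPM to 26.8 to 38.6 CPM. Of 9 hypothalamic markers, 3 passed the filter and 2 were called higher at 1 µM, where the list summed to 2.78 to 4.15 CPM and Hcrt, Agrp and Avp were at 0. The part of these shifts in the peptide changes was not tested.

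**Figure D3:**
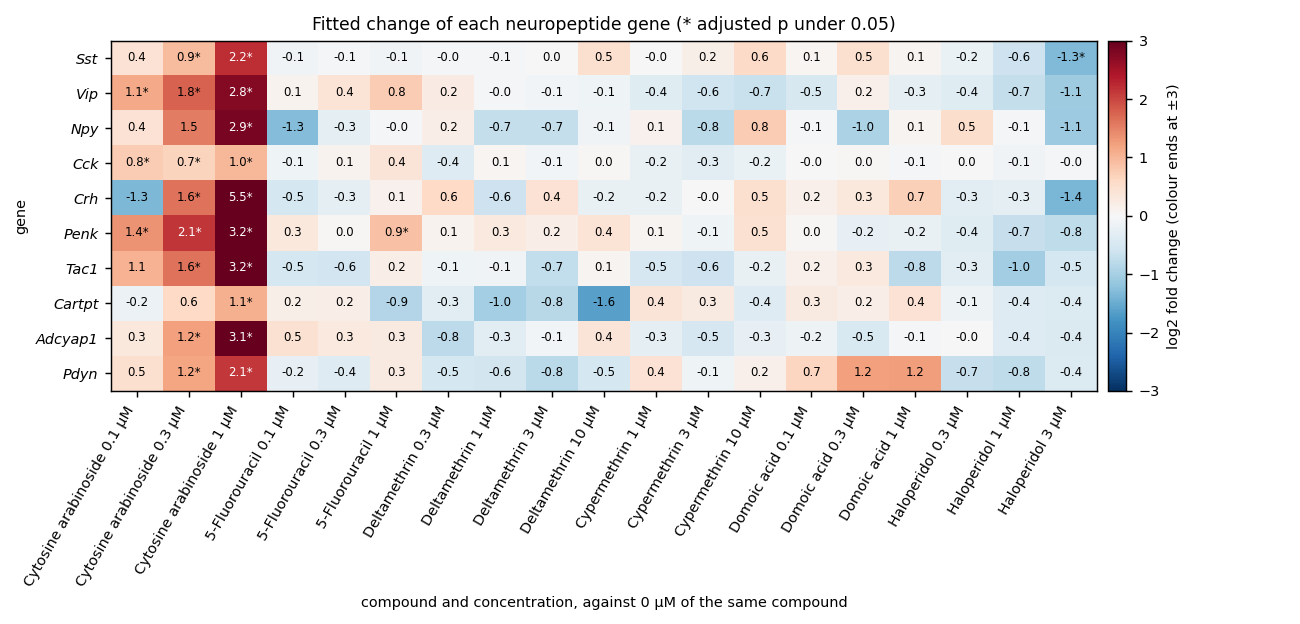
Fitted log2 fold change of each neuropeptide gene (rows) at each concentration of each compound against its own 0 µM libraries (columns), with values printed in the cells. Stars mark an adjusted p under 0.05, and colours end at 3 in either direction. Of 23 stars, 21 lie in the cytosine arabinoside columns.

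With 5-fluorouracil, a fluorinated uracil that also blocks DNA synthesis, Penk alone was called at 1 µM. Its 0 µM libraries, both GRC327, held 17.7 and 16.9 CPM, and the 1 µM libraries 69.3 CPM in GRC321 and 27.6 and 32.4 CPM in GRC327. The GRC327 libraries at 1 µM lay above 0 µM. The GRC321 library had no 0 µM library of its project, and in the GRC321 0 µM libraries of the other compounds Penk stood at 29.8 to 39.5 CPM. The log2 fold change was 0.87 ± 0.23 (adjusted p = 0.0159, edgeR), 1 of 10 members against 0.691% of all genes. The call was lost, at adjusted p values of 0.0801 to 0.162, without replicate 1 or 2 at 0 µM or replicate 3 at 1 µM, and in GRC327 alone the change was 0.80 (adjusted p = 0.0826). The step from 0.3 to 1 µM was called for Penk at 0.84 ± 0.20 (adjusted p = 0.00631), against 0.437% of all genes, and was lost without replicate 1 at 0.3 or 1 µM or replicate 3 at 0.3 µM (adjusted p values of 0.0733 to 0.103). Vip stood at 12.5 and 9.28 CPM at 0 µM and at 29.4, 16.02 and 19.9 CPM at 1 µM, above 0 µM in all 3 libraries, with a change of 0.76 ± 0.25 that missed the threshold (adjusted p = 0.080) and was called by DESeq2 at 0.77 (adjusted p = 0.0469). In the trend Vip (0.26 per step, adjusted p = 0.0419) and Penk (0.23 per step, adjusted p = 0.0441) were called higher, against 1.04% of all genes. Leaving out single libraries ended the Vip trend call in 7 of 11 cases and that of Penk in 6. Cartpt values were lower, at 7.29 and 9.75 CPM at 0 µM and 7.07, 5.27 and 4.08 CPM at 1 µM, with a change of -0.87 that was not called (adjusted p = 0.334), while 3.34% of all genes were called lower.

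At 0.1 and 0.3 µM of 5-fluorouracil 0 members were called by edgeR, DESeq2 or limma, 0 had an unadjusted p under 0.05, and of all genes 0.00652% were called higher at each, 0% lower at 0.1 µM and 0.0391% lower at 0.3 µM. The median change of the 10 was -0.12 and -0.01, and 0.23 at 1 µM. Of the markers, 2 of 10 GABAergic genes were higher at 1 µM, Slc32a1 at 0.85 and Gad1 at 0.81, against 0.691% of all genes. Lower were 3 of 6 astrocyte and 6 of 6 oligodendrocyte lineage markers, against 3.34% of all genes. Of the 8 striatal projection neuron markers, a type that holds Penk, 0 were called by edgeR and 5 were higher at an unadjusted p under 0.05. Their median change was 0.69 over all 8. They summed to 245 CPM in both 0 µM libraries, which were GRC327, and to 237, 278 and 477 CPM at 1 µM. The highest sum was already 400 CPM at 0.1 µM and 386 CPM at 0.3 µM. Of the 8 pan-neuronal markers 0 were called and 3 were higher at that unadjusted p. The part of these shifts in the Penk change was not tested. The granule, receptor and activity lists held 0 calls there by edgeR, and at an unadjusted p under 0.05 they held 4 genes higher, 1 lower and 2 higher in that order.

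The effects of both antimetabolites were compared at matched concentrations, 10 genes at each of 3 concentrations. The compounds differ in that cytosine arabinoside is a nucleoside with an altered sugar and 5-fluorouracil a free base with a fluorine. At 1 µM 9 of 10 members rose more with cytosine arabinoside, against 4.3% of all genes with a larger effect in that direction. At 0.3 µM there were 4, Sst, Vip, Penk and Tac1, against 0.704%, and at 0.1 µM 2, Cck and Penk, against 0.417%. Without a project term 5 of these 15 differences were called. For Crh the difference at 1 µM was 5.38 on the log2 scale, with a 95% interval from 3.61 to 7.14. For Adcyap1 it was 2.86 (2.11 to 3.60), for Sst 2.31 (1.73 to 2.90), for Penk 2.28 (1.69 to 2.88) and for Tac1 2.98 (1.76 to 4.20). For Vip it was 2.00 (1.35 to 2.65), for Cartpt 1.94 (0.81 to 3.06), for Pdyn 1.87 (0.80 to 2.93) and for Npy 2.88 (0.91 to 4.85).

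Cck was the exception at 1 µM, with a difference of 0.61, an interval from 0.09 to 1.14 and an adjusted p of 0.126 (edgeR). At 0.1 µM its difference of 0.90 (0.38 to 1.43) was called. The Npy difference at 1 µM was the weakest call, at an adjusted p of 0.0416 with edgeR, and DESeq2 gave 0.0539. It was lost in 9 of 23 fits that left out 1 library, among them the fit without the GRC321 library at 1 µM of cytosine arabinoside (2.00, adjusted p = 0.228). The Crh difference at 1 µM was 3.98 (adjusted p = 0.11) without replicate 2 at 0 µM of 5-fluorouracil. That of Cartpt was 1.28 (adjusted p = 0.107) without replicate 3 at 1 µM of cytosine arabinoside, and that of Pdyn 1.62 (adjusted p = 0.078) without replicate 1 at 0 µM of 5-fluorouracil. At 0.1 µM the Cck and Penk differences were lost in 6 and 7 of the 23 fits, with lowest values of 0.71 and 0.78. At 0.3 µM the Sst difference was lost in 5, that of Tac1 in 3 and that of Vip in 1, and that of Penk in 0. In the granule list 10 genes rose more with cytosine arabinoside at 1 µM and 1 less, and in the activity list 10 more and 0 less.

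**Figure D4:**
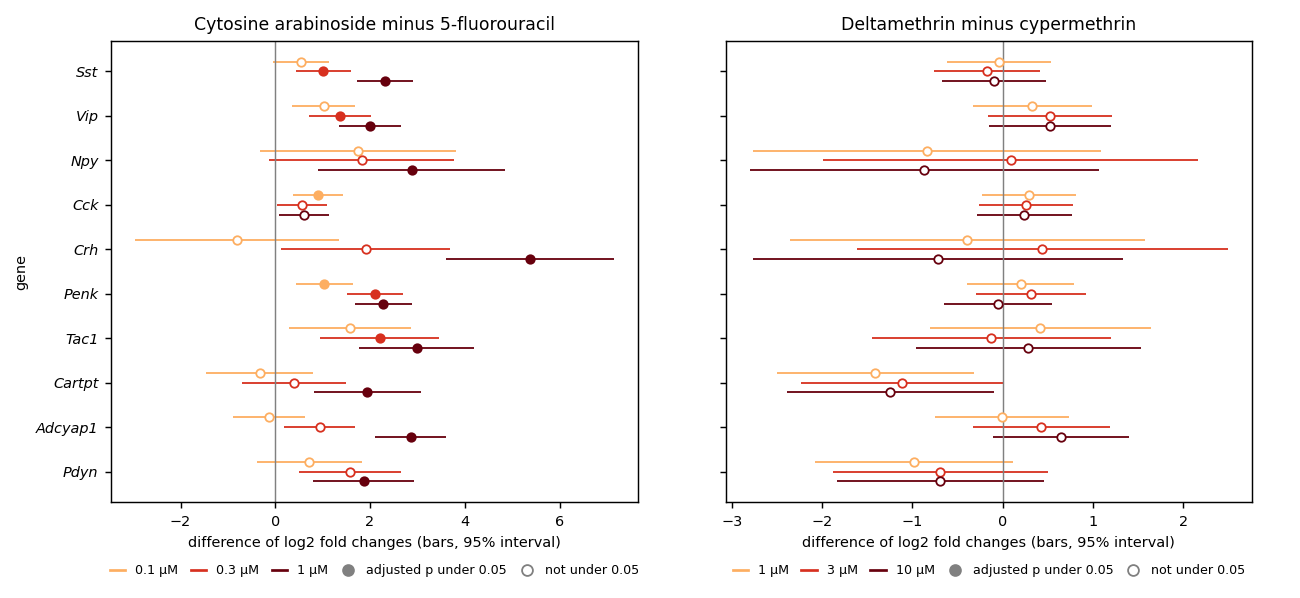
Difference between the log2 fold changes of related compounds (x axis) for each neuropeptide gene (y axis) at 3 matched concentrations, with 95% intervals as bars. Filled points have an adjusted p under 0.05. The left panel, cytosine arabinoside minus 5-fluorouracil, holds 15 filled points, all to the right of 0, and the right panel, deltamethrin minus cypermethrin, holds none.

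Haloperidol, an antipsychotic that blocks dopamine D2 receptors, lowered Sst. The 0 µM libraries held 122 CPM in GRC321 and 83.6 and 76.1 CPM in GRC327, and those at 0.3 µM 98.3, 90.8 and 55.7 CPM. At 1 µM the values were 75.8, 58.2 and 47.5 CPM, and at 3 µM 36.9, 34.6 and 37.8 CPM. Every library at 1 and 3 µM lay below every one at 0 µM, and those at 3 µM below those at 1 µM. The log2 fold change was -0.19 ± 0.19 at 0.3 µM, -0.63 ± 0.19 at 1 µM and -1.33 ± 0.20 at 3 µM, of which the last was called (adjusted p = 0.00029, edgeR). It was 1 of 4 genes called lower at 3 µM, 0.0261% of all genes. The trend of -0.44 per step was called (adjusted p = 7.7e-05) and stayed called whichever 1 of the 12 libraries was left out.

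The 3 µM call depended on the project term and on the GRC321 library. Without the GRC321 library at 3 µM the Sst change was -1.17 (adjusted p = 0.0907), in GRC327 alone -1.14 (adjusted p = 0.814), and without a project term -1.37 (adjusted p = 0.933). Within each project the 3 µM level was lower, with a ratio of 0.301 in GRC321 and 0.454 in GRC327. The trend calls were also lost without a project term, at slopes of -0.45 for Sst and -0.35 for Vip, and in GRC327 alone, at -0.39 for each.

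Vip fell in the haloperidol trend by 0.36 per step (adjusted p = 0.023). It stood at 15.5, 15.2 and 13.7 CPM at 0 µM, 12.5, 12.5 and 9.30 CPM at 0.3 µM, 12.6, 7.59 and 7.55 CPM at 1 µM and 7.88, 5.98 and 7.32 CPM at 3 µM. All exposed libraries lay below those at 0 µM of haloperidol. The library at 15.2 CPM was the highest GRC327 library at 0 µM of any compound. Over all compounds the 0 µM libraries ran from 13.01 to 23.6 CPM in GRC321 and 7.18 to 15.2 CPM in GRC327. The exposed GRC321 libraries and the GRC327 library at 5.98 CPM lay below these ranges, and the others within them. The change at 3 µM was -1.07 ± 0.23 with an adjusted p of 0.067 in edgeR and 0.0143 in DESeq2. The trend call was lost in 7 of 12 fits that left out 1 library, at slopes of -0.39 to -0.33. Sst and Vip were 2 of 7 genes called in the trend, 0.0456% of all genes. The others, named after their values were seen, were Crhbp, which encodes a binding protein of the Crh peptide, at -0.73 per step (adjusted p = 0.0119), Rgs8, Lynx1, Nrip3 and Lgi1.

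**Figure D5:**
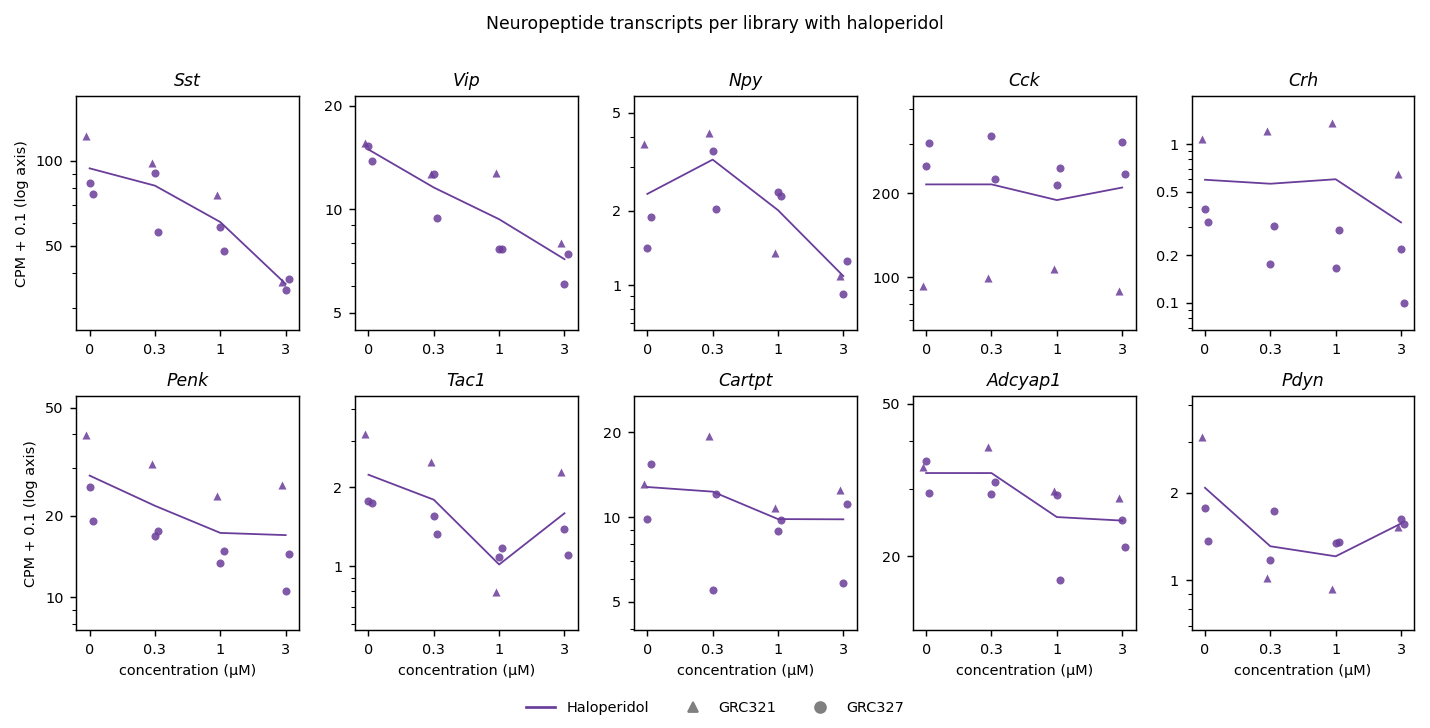
CPM plus 0.1 on a log axis against haloperidol concentration (µM) for each neuropeptide gene, with 1 point per library. Triangles are GRC321, circles are GRC327, and lines join group means. Sst and Vip decline with each concentration, and for Sst the 3 libraries at 3 µM sit between 34.6 and 37.8 CPM.

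The other 8 members were not called with haloperidol. Penk stood at 39.5, 25.5 and 19.04 CPM at 0 µM and 25.8, 10.4 and 14.3 CPM at 3 µM, overlapping, with a change of -0.75 ± 0.20 (adjusted p = 0.34, edgeR). Crh at -1.38 ± 0.76 and Npy at -1.09 ± 0.76 had wide errors at low counts, and Cck was at -0.04 ± 0.17. The fitted change was below 0 for 8 of 10 members at 0.3 µM and for 10 of 10 at 1 and 3 µM, with medians of -0.25, -0.51 and -0.64. The median over all genes tested was 0.0003, 0.0006 and -0.005. At 1 µM 0 members were called by edgeR, DESeq2 or limma and 5 had an unadjusted p under 0.05, all lower. At 0.3 µM both counts were 0. Of all genes 0% were called at either concentration, and the share of all genes at an unadjusted p under 0.05 was not computed. No gene of the 13 other lists was called at 3 µM by edgeR. GABAergic markers had a median of -0.46 and 6 of 10 lower at an unadjusted p under 0.05, with Gad2 at -0.62 (adjusted p = 0.106) and sums of 1565 to 2238 CPM at 0 µM and 1340 to 1633 CPM at 3 µM. Their part in the change of Sst and Vip was not tested.

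Deltamethrin and cypermethrin, pyrethroid insecticides that prolong the opening of sodium channels and differ in carrying bromine or chlorine, gave 0 calls among the members. The count was 0 of 40 for deltamethrin and 0 of 30 for cypermethrin by edgeR, DESeq2 and limma, and 0% of all genes were called in each of these comparisons. At an unadjusted p under 0.05 deltamethrin had 2 pairs higher and 4 lower and cypermethrin 2 and 2. Cartpt, a feeding- and stress-related peptide gene, had lower values with deltamethrin. It stood at 18.6, 18.03 and 13.03 CPM at 0 µM, 13.4, 5.55 and 6.88 CPM at 1 µM, 8.61, 9.67 and 9.62 CPM at 3 µM and 6.17, 5.12 and 5.02 CPM at 10 µM. The 3 and 10 µM libraries lay wholly below those at 0 µM of deltamethrin, and the single 0.3 µM library, at 16.1 CPM, did not. Over all compounds the 0 µM libraries ran from 7.92 to 20.6 CPM in GRC321 and 7.29 to 18.03 CPM in GRC327. The 3 µM libraries lay within these ranges and the 10 µM libraries below them. The change at 10 µM was -1.62 ± 0.39 with a p of 0.00012 and an adjusted p of 0.914 in edgeR's test over all genes.

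With cypermethrin Cartpt stood at 12.3 and 11.7 CPM at 0 µM and 18.9, 5.48 and 5.35 CPM at 10 µM, and the groups overlapped. The difference between the compounds for Cartpt was -1.41 at 1 µM (95% interval -2.50 to -0.32), -1.11 at 3 µM (-2.23 to 0.01) and -1.24 at 10 µM (-2.39 to -0.10). None of the 30 differences between the pyrethroids was called by edgeR, DESeq2 or limma, and 2 had an unadjusted p under 0.05, those of Cartpt at 1 and 10 µM. For Sst the interval at 10 µM ran from -0.68 to 0.49. The fitted change of Sst itself at 10 µM was 0.47 with deltamethrin and 0.57 with cypermethrin, and neither was called. Adcyap1 at 10 µM deltamethrin was 88.7 CPM in the GRC321 library and 28.1 and 28.7 CPM in the others.

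Domoic acid, a shellfish toxin that activates kainate and AMPA receptors, also gave 0 calls in 30 by edgeR, DESeq2 and limma, with 3 pairs higher and 1 lower at an unadjusted p under 0.05. At 0.3 µM 1.21% of all genes were called higher and 0.3% lower, and at 0.1 and 1 µM, where 0% of all genes were called, the members' smallest unadjusted p values belonged to Vip (0.042) and Pdyn (0.0025). Pdyn stood at 0.905, 1.39 and 0.982 CPM at 0 µM, 2.53, 1.44 and 1.53 CPM at 0.1 µM, 5.02, 1.73 and 2.10 CPM at 0.3 µM and 4.94, 2.40 and 1.47 CPM at 1 µM. All 9 exposed libraries lay above the 3 at 0 µM. Those at 0.905 and 0.982 CPM were the lowest 0 µM libraries of their projects. Over all compounds the 0 µM libraries ran from 0.905 to 3.23 CPM in GRC321 and 0.982 to 2.13 CPM in GRC327. The exposed libraries at 5.02, 4.94 and 2.40 CPM lay above these ranges, and the others within them. The change at 0.3 µM was 1.24 ± 0.38 (adjusted p = 0.0668, edgeR), and without replicate 3 at 0.3 µM it was called at 1.25 (adjusted p = 0.0473). Sst at 0.3 µM stood at 125, 160 and 86.0 CPM against 135, 79.5 and 67.5 CPM at 0 µM, with a change of 0.47 ± 0.19 (adjusted p = 0.13) that was called at 0.76 (adjusted p = 0.0418) in GRC327 alone. The library at 160 CPM, replicate 2, stood apart from its group, with the highest scaling factor of all libraries (1.155) and a chi-square per gene of 72.6 against the other GRC327 library at 0.3 µM. Other pairs of GRC327 libraries in a group reached 46.9 at most. Without replicate 2 the Sst change at 0.3 µM was 0.08 (adjusted p = 0.992, edgeR).

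The genes whose 19 changes against 0 µM lay nearest to those of each member were found among 12038 genes with an average log2 CPM of at least 0, by the root mean square difference. For Sst these were Rasgrf1 at 0.302 and Lhfpl5 at 0.304, and for Penk Lgi2 at 0.282 and Gad1 at 0.292. Lgi2 was also nearest to Npy, at 0.562, followed by Gad2 at 0.570, and stood second for Vip, at 0.413, after Nefh at 0.394. Adcyap1 had Zdbf2 at 0.287 and Nr4a3, an activity-induced factor, at 0.288. Crh had Acan at 0.634 and Fos at 0.676. The root mean square of a member's own changes was 1.43 for Crh, 0.951 for Npy and 0.641 for Cartpt. Distances are therefore not compared between members. Cck had Itpa at 0.128 and Armcx2 at 0.147. Tac1 had Rbp4 at 0.421 and Zfp804b at 0.423, Cartpt had Spred3 at 0.425 and Dock5 at 0.452, and Pdyn had Dlx5 at 0.427 and Marveld2 at 0.461. The comparisons of a compound share its 0 µM libraries.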

How the data were processed

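The authors deposited expected counts (estimates per gene, unscaled) for 19771 genes, of which 20.58% of values are not whole (tolerance 1e-06), and a table of CPM with an offset of 1e-04. The submitters' processing notes name Partek and STAR. Versions, roles, genome build and strandedness are not given in the sources used here, so reads of a member and of an antisense gene might not be told apart. Per the labels, libraries were polyA-selected and sequenced in 2 projects, read here from the titles. Each title also carries a sample number, marked S. Within GRC327 these numbers recur between libraries, so its libraries may come from separate sample sheets or runs. The model held no term for this, and its effect was not tested. Gene rows of small RNA families (such as U6) span 6 members, and no row of another protein-coding gene overlaps a member.

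Expected counts were rounded and fitted in edgeR 4.0.16 (R 4.3.3) with TMM scaling, after filterByExpr with a minimum count of 10. One quasi-likelihood model held all 71 libraries, with a coefficient for each compound and concentration and a project effect for each compound (31 columns, 40 residual degrees of freedom), so groups with 1 or 2 libraries borrowed the spread of the rest. Tests were 2-sided, with Benjamini-Hochberg adjustment over all 15343 genes in each comparison and calls at an adjusted p under 0.05. Shares of all genes at an unadjusted p under 0.05 were not computed for any comparison, so counts at that p have no baseline. Adjusted p values are edgeR's unless another tool is named. Differences have 95% intervals. Trends were linear in the rank of the concentration. The common biological coefficient of variation was 15.6%. Counts of libraries within a group differed by a chi-square of 3.27 to 137 per gene over 68 pairs, so none was treated as a duplicate. The test was run on simulated data with a common spread for all genes and no project effect, so that check does not cover the project term. Alternatives were DESeq2 1.42.0, limma 3.58.1 on the deposited CPM (log2 of CPM plus 0.5), other filters, scalings and models, and each library left out. Fits without a library kept the filtered genes and the trended dispersions (spread by expression level) of the full fit. Scaling and the quasi-likelihood spread were estimated anew in them.

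The members and the lists were chosen with earlier results of these data known, and lists are given as counts and medians with no test. The genes named were all members, up to 4 list genes with the smallest p, and the 2 nearest genes of each member. Any further gene is marked in the text as chosen on its values.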

Additional observations from a re-analysis of the deposited data

Results flagged for a closer look

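The effect of cytosine arabinoside was larger than that of 5-fluorouracil at the same concentration in 15 of the 30 differences tested, each by a contrast of both effects in edgeR. At 0.1 µM the log2 difference was 0.90 for Cck and 1.03 for Penk. At 0.3 µM it was 1.01 for Sst, 1.37 for Vip, 2.10 for Penk and 2.20 for Tac1. At 1 µM it was 2.31 for Sst, 2.00 for Vip, 2.88 for Npy, 5.38 for Crh, 2.28 for Penk, 2.98 for Tac1, 1.94 for Cartpt, 2.86 for Adcyap1 and 1.87 for Pdyn. The 0 µM libraries of 5-fluorouracil were both from GRC327, so its project term rests on the exposed libraries alone.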

How the results depend on the processing

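Of the 63 called pairs of gene and comparison, none changed direction under another setting. Fewer were called without a project term (34 lost), with GRC327 alone (15 lost) and with a fit per compound (8 of 48 lost), and the other settings (DESeq2, its size factors, no filter, a minimum count of 50, all 0 µM libraries as reference, limma) lost 0 to 5. The cause was not tested. Without a project term the calls above 0 µM for cytosine arabinoside numbered 11 in place of 21, its steps 5 in place of 10, and its differences from 5-fluorouracil 5 in place of 15. Its steps numbered 4 in GRC327 alone and 6 in a fit per compound. For 5-fluorouracil the 1 call above 0 µM became 2 with DESeq2, 0 without a project term or in GRC327 alone, and 3 with all 0 µM libraries as reference, which also gave 1 call below. Its 2 trend calls became 0 without a filter, without a project term, in GRC327 alone and with limma, 1 in a fit per compound and 4 with all 0 µM libraries, and its 1 step call became 0 without a project term and in GRC327 alone. For haloperidol the 1 call below 0 µM became 2 with DESeq2 and with a minimum count of 50, and this call and its 2 trend calls became 0 without a project term and in GRC327 alone. Domoic acid had 1 call above 0 µM in place of 0 in GRC327 alone and with all 0 µM libraries.

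Leaving out 1 library at a time, cytosine arabinoside had 19 to 21 calls above and 0 to 1 below 0 µM, 9 to 10 trends, 5 to 11 steps and 8 to 16 differences from 5-fluorouracil. The ranges for 5-fluorouracil were 0 to 1 above, 0 to 2 trends and 0 to 1 steps. For haloperidol they were 0 to 1 below and 1 to 2 trends, for domoic acid 0 to 2 above and for the cypermethrin trend 0 to 1. Of 917 such refits of called pairs 89 missed the threshold. Of the 377 pairs not called, 11 were called under some other setting and 7 with a library left out. The project term already blocks libraries by project within each compound. No paired analysis was possible within GRC327 because the labels do not say which of its libraries share a culture, and runs of consecutive title numbers were not used as pairs. Depth limits Crh, Npy, Tac1 and Pdyn most, since their 0 µM libraries held few counts.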
